A study of Mus musculus with 2 samples.

Results

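High-mitochondrial barcodes are droplets of a single-cell library in which an unusually large part of the captured RNA comes from the mitochondrial genome. They were chosen by their measured mt- share and depth, from the unfiltered matrices, as barcodes with at least 2500 unique molecular identifiers (UMIs, each marking 1 captured molecule) of which more than 10% and at most 50% belonged to the 13 mt- genes. Of 9393 barcodes with at least 2500 UMIs, 1684 met this rule and form the high class. The other 7709 had at most 10% mt- UMIs and form the low class. No barcode at this depth exceeded 50%. Because the mt- share chose the barcodes, it is given only as a description, and every level that follows was computed after the mt- genes were left out of the totals.

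The cells were E14 mouse embryonic stem cells of 129/Ola background, grown on gelatin in serum with leukaemia inhibitory factor. Both cultures were transfected with siRNA by Lipofectamine 2000, one with a control siRNA (control) and the other with siRNA against Son (sonKD), a gene for an RNA-binding protein of nuclear speckles. After 24 h the cells were detached with trypsin, frozen, thawed, sorted for low 7-AAD staining as healthy cells and barcoded with 10x Genomics 3′ v3 chemistry. Each group held 1 library, so no difference has a replicate check, the intervals given (95%) cover counting error only, and an effect of the knockdown and a difference between libraries cannot be told apart. The sort applied to every barcode of both classes.

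A high mt- share is a common ground for discarding barcodes from single-cell data. Mitochondrial transcripts lie inside the organelle, most messenger RNA lies in the cytosol, mRNA for secreted and membrane proteins is translated at the endoplasmic reticulum (ER), and long noncoding RNAs such as Malat1 stay in the nucleus. A cell whose plasma membrane is damaged can lose cytosolic RNA while RNA held in organelles or the nucleus remains, and cell types also differ in how much mitochondrial RNA they hold. Whether either applies to these barcodes was not tested.

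The gene with the largest ratio between the classes in both libraries carries a copy of mitochondrial sequence, and 120 bases of it are shown with the matching stretch of mt-Rnr2 so that the near identity can be seen. Gm20594 is annotated as a single-exon protein-coding gene on the plus strand at chr6:79817916-79818364, and mt-Rnr2, the mitochondrial 16S ribosomal RNA, on the plus strand at chrM:1094-2675 (both GENCODE M21, GRCm38). Across 439 aligned bases the transcripts were 88.4% identical. mt-Rnr2 itself is not among the 13 mt- genes of the matrices, which are all protein-coding, so it did not enter the mt- share. Lower-case letters are shared and capitals mark the 5 differences in this stretch, which covers bases 939 to 1058 of mt-Rnr2 and 298 to 417 of Gm20594.
mt-Rnr2: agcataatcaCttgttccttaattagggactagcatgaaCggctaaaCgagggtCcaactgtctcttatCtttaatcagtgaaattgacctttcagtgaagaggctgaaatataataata
Gm20594: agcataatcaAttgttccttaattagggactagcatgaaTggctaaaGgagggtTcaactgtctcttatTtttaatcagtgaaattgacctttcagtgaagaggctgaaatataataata
Gm20594 stood at 43.5 CPM (UMIs of the gene per 1000000 non-mt UMIs) in the high class against 4.40 in the low class of control, and at 34.7 against 3.62 in sonKD. The log2 ratios of high over low were 3.30 (2.89 to 3.71) and 3.26 (2.86 to 3.66). Reads of this gene and of mt-Rnr2 cannot be told apart from the counts. Among barcodes with 2000 to 4000 non-mt UMIs the ratios were 1.73 (0.89 to 2.67) and 0.48 (-0.47 to 1.59). In control its level ran from 3.67 CPM in barcodes with up to 5% mt- UMIs to 86.5 CPM in those with 20 to 30%.

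High-mitochondrial barcodes made up a larger part of the sonKD library. In control 626 of 5604 barcodes met the rule, or 11.2% (exact binomial interval 10.4 to 12.02). In sonKD it was 1058 of 3789, or 27.9% (26.5 to 29.4). The median mt- share was 14.6% in the control high class and 17.9% in the sonKD high class, against 3.65% and 4.10% in the low classes, and the highest values were 29.1% and 42.2%. No high-class barcode sequence occurred in both libraries, and 5 barcodes in all were shared at this depth.

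The size of the class depended strongly on the UMI minimum. With 1500 UMIs the shares were 34.5% in control and 45.2% in sonKD, and with 5000 UMIs they were 0.335% and 3.07%. When each library's minimum was set to its own low-class median divided by 3, a setting chosen after seeing the data, the shares were 10.1% (9.30 to 10.9) in control and 8.54% (7.55 to 9.62) in sonKD, so the order of the libraries turned. The sonKD low class was also the deeper one, with a median of 11612 UMIs against 7737.5.

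**Figure D1:**
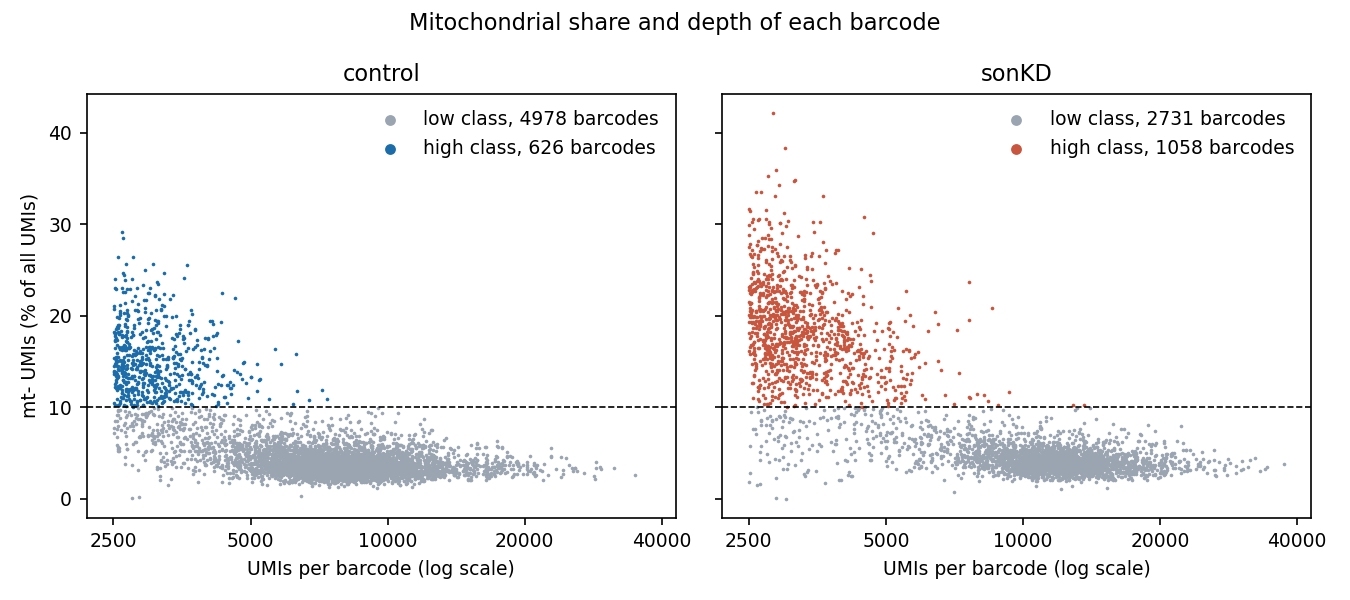
Share of mt- UMIs (%) against UMIs per barcode (log scale) for each barcode with at least 2500 UMIs, control left and sonKD right, with the 10% limit dashed. Most high-class barcodes lie close to the UMI minimum, while the low classes centre on 7737.5 and 11612 UMIs.

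High-class barcodes were shallow and yet diverse for their depth. Their median was 2973 UMIs in control and 3140 in sonKD, of which a median of 2513 and 2567 were not mitochondrial. The low classes had medians of 7460 and 11110 non-mt UMIs. After each barcode was thinned to 1250 non-mt UMIs, which left none out, the median number of genes found was 917 in the high class against 813 in the low class of control, and 891 against 782 in sonKD. Without thinning the order was the opposite, with 1590.5 against 2873 genes in control and 1556 against 3474 in sonKD.

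Pluripotency genes were expressed in the high class. Most markers of other lineages had few UMIs there, and several were at 0. Those named below as at 0 had at most 17 UMIs in either low class, whose sums are much deeper, so a 0 says little. Against all low-class barcodes, the naive pluripotency sum was lower in the high class, and the endoderm, mesoderm and neuroectoderm sums were higher. The 23 naive pluripotency genes summed to 0.941% of non-mt UMIs in the high class against 1.08% in the low class of control, and to 1.06% against 1.15% in sonKD. Pou5f1, the gene for OCT4, stood at 802 against 1148 CPM in control (log2 ratio -0.52) and 759 against 956 in sonKD (-0.33). Sox2 ratios were 0.05 and 0.22, and Nanog ratios -0.06 and -0.15, so all 3 factors were within 1.5-fold in both libraries. Fgf4, a growth factor gene of pluripotent cells, lay above it at 0.83 and 0.77. Among barcodes with 2000 to 4000 non-mt UMIs, Fgf4 was at 0.89 and 0.20 and Nanog at 0.31 and -0.16. Pou5f1 was then at -0.51 and -0.05, and Sox2 at 0.03 and 0.32. The naive pluripotency sums were 0.946% against 1.03% in control and 1.06% against 1.02% in sonKD, so their order turned in sonKD.

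Of 13 trophectoderm markers, Cdx2 and Hand1 were at 0 UMIs in both high classes, and their sum was 0.00565% and 0.00654% of non-mt UMIs against 0.00783% and 0.0103% in the low classes. Of 14 primitive endoderm markers, Sox17 and Foxa2 were at 0, and the sum, 0.0438% and 0.0410% against 0.0316% and 0.0309%, came mainly from Sparc and Lama1, which encode basement membrane proteins. Lamb1, Col4a1 and Gata4 were also higher in both high classes, Gata4 at 5.36 against 2.92 CPM in control and 4.67 against 2.44 in sonKD. Dab2, Cubn and Gata6, on few UMIs, went in opposite directions in the libraries. The 10 mesoderm markers summed to 0.00565% and 0.00561% against 0.00417% and 0.00333% in the low classes. T, Gsc and Kdr among them were at 0, and Nodal, which pluripotent cells also express, was at 48.8 against 36.1 CPM in control and 50.1 against 27.7 in sonKD. The 10 neuroectoderm markers summed to 0.0196% and 0.0132% against 0.0129% and 0.0112%. Neurog2 and Hes5 among them were at 0, and Ncam1, an adhesion molecule gene, was at 137.5 against 64.8 CPM in control and 81.1 against 51.4 in sonKD. Among barcodes with 2000 to 4000 non-mt UMIs only, the endoderm sums were lower in the high class, at 0.0433% and 0.0408% against 0.0472% and 0.0444%, as were the mesoderm sums, at 0.00570% and 0.00508% against 0.00772% and 0.00587%, while the neuroectoderm sums stayed higher, at 0.0199% and 0.0134% against 0.00987% and 0.00919%. In the high classes, no UMI of Ptprc, Tyrobp or Lyz2 among 9 blood markers was found. Coro1a had 10 UMIs in each, and the blood sums were 0.000833% and 0.000501% against 0.000641% and 0.000567% in the low classes. Col3a1, Col1a2, Postn, Dcn, Lum and Acta2 among 11 fibroblast markers were also at 0 in the high classes, where Fbln1 had 47 and 80 UMIs. The fibroblast sums were 0.0033% and 0.0032% against 0.0026% and 0.0023%. At 2000 to 4000 non-mt UMIs they were 0.0032% and 0.0031% against 0.0042% and 0.0033%. Of 12 genes of the 2C-like state 11 were in the matrices, and a single UMI of them was found in the high classes.

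Genes were then compared between the classes within each library, over the 6702 genes that averaged 20 CPM or more across the 4 class sums. In control 2344 genes, 35.0% of those tested, were at least 1.5-fold higher in the high class and 518, or 7.73%, at least 1.5-fold lower. In sonKD 2047 (30.5%) were higher and 312 (4.66%) lower. Both libraries had 1712 genes (25.5%) higher and 268 (4.0%) lower, and no gene was past 1.5-fold in opposite directions. The shared genes were 73.0% of the higher and 51.7% of the lower genes of control, and 83.6% and 85.9% of those of sonKD. As a description across genes, which are not independent, the ratios of the libraries had a Pearson correlation of 0.91.

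The balance of higher and lower genes depended on the scaling. The median log2 ratio over all genes was 0.34 in both libraries. With TMM factors, which centre most genes on 0, the medians were 0.01 and -0.01, and the higher genes went from 81.9% of those past 1.5-fold to 40.1% in control and from 86.8% to 38.7% in sonKD. With ribosomal protein genes left out of the totals they were 65.6% and 66.8%. TMM factors lower every log2 ratio by 0.33 in control and 0.34 in sonKD, so a positive value smaller than that, for a gene or a list, is negative under TMM. Each ratio can be read against 0.34, the median gene.

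The classes also differed in depth, so the comparison was repeated on barcodes with 2000 to 4000 non-mt UMIs. That left 591 high and 320 low barcodes in control with median non-mt UMIs of 2508 and 3228, and 886 high and 127 low barcodes in sonKD with 2552 and 2980. Their low class is a sparse tail of that class, with median mt- shares of 6.80% and 7.13%. Here 1882 of 6930 genes (27.2%) were higher and 440 (6.35%) lower in control, and 809 (11.7%) and 329 (4.75%) in sonKD. Both libraries had 351 genes (5.06%) higher and 109 (1.57%) lower, the correlation of their ratios was 0.34, and 57 genes were past 1.5-fold in opposite directions. Of the 1712 and 268 genes past 1.5-fold in both libraries before, 202 and 40 were so again. Values under this restriction are called depth-restricted. Their sonKD low class held 391665 non-mt UMIs.

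Nuclear RNA was higher in the high class. Of 12 measured nuclear long noncoding RNAs all 12 were past 1.5-fold in control and 11 in sonKD, with median log2 ratios of 1.13 and 1.05. Together they were 1.80% of non-mt UMIs against 0.392% in control and 1.34% against 0.355% in sonKD. Depth-restricted, 12 of 13 were past 1.5-fold in control with a median of 1.13, but 1 of 13 in sonKD with a median of 0.26.

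Malat1, an abundant RNA of nuclear speckles, was the main part of that sum. It stood at 15469 CPM against 2739 in control (log2 ratio 2.50, 2.48 to 2.52) and at 10902 against 2288 in sonKD (2.25, 2.23 to 2.27). Per barcode, its median was 1.35% of non-mt UMIs in the high class against 0.200% in the low class of control, and 0.891% against 0.167% in sonKD. In control 73.5% and in sonKD 58.7% of high-class barcodes exceeded the 95th percentile of their low class, so most but not all barcodes of the class shared this feature. Depth-restricted, the Malat1 ratio was 1.68 (1.63 to 1.72) in control and 0.51 (0.45 to 0.56) in sonKD, where the restricted low class itself held 8127 CPM.

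Neat1, the scaffold RNA of paraspeckles, stood at 274 against 90.7 CPM in control and 556 against 233 in sonKD, with depth-restricted ratios of 0.65 and 0.26. Tsix, the antisense RNA of the X-inactivation centre, had ratios of 1.26 and 1.29, and Kcnq1ot1, an imprinted antisense RNA, 0.99 and 0.57. Reads of an antisense RNA and of its partner were separable only if strand was used in counting, which is not given in the sources used here. Meg3, an imprinted maternally expressed RNA, had ratios of 0.93 and 0.79, and 99.0% of its last 300 bases match another annotated transcript. Depth-restricted, Tsix was at 0.90 and 0.31, Kcnq1ot1 at 1.26 and 0.29 and Meg3 at 1.31 and 0.15.

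Other noncoding transcripts were higher in the high class as well. AY036118 was at 1327 against 169 CPM in control (log2 ratio 2.97) and at 942 against 135 in sonKD (2.80). Gm42418 had ratios of 2.10 and 2.05. These annotated genes overlap on chromosome 17, share their last 300 bases fully with other transcripts, and lie over ribosomal RNA repeat sequence, so their counts cannot be assigned to one gene. Depth-restricted, AY036118 was at 1.51 and 0.86 and Gm42418 at 0.59 and 0.01. 5330438D12Rik (2.42 and 2.74), Gm35188 (2.61 and 2.37), Gm15614 (2.43 and 2.86) and 1600010M07Rik (2.37 and 2.14) followed, each lying opposite a protein-coding gene. Among protein-coding genes, Lrrc4 was at 56.0 against 11.2 CPM in control (2.32) and Zfp202, a zinc finger gene, at 31.5 against 7.55 (2.06). Depth-restricted, 5330438D12Rik (1.20 and 1.07), 1600010M07Rik (1.35 and 1.32), Gm15614 (1.34 and 1.99) and Zfp202 (1.17 and 1.19) stayed past 1.5-fold in both libraries, whereas Gm35188 was at 1.56 and -0.08 and Lrrc4 at 1.68 and 0.17. Against all low-class barcodes, 111 of 140 tested genes that are not protein-coding, or 79.3%, were past 1.5-fold higher in control and 103, or 73.6%, in sonKD. Of the protein-coding genes, 34.0% and 29.6% were. These shares were not computed under the depth restriction.

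**Figure D2:**
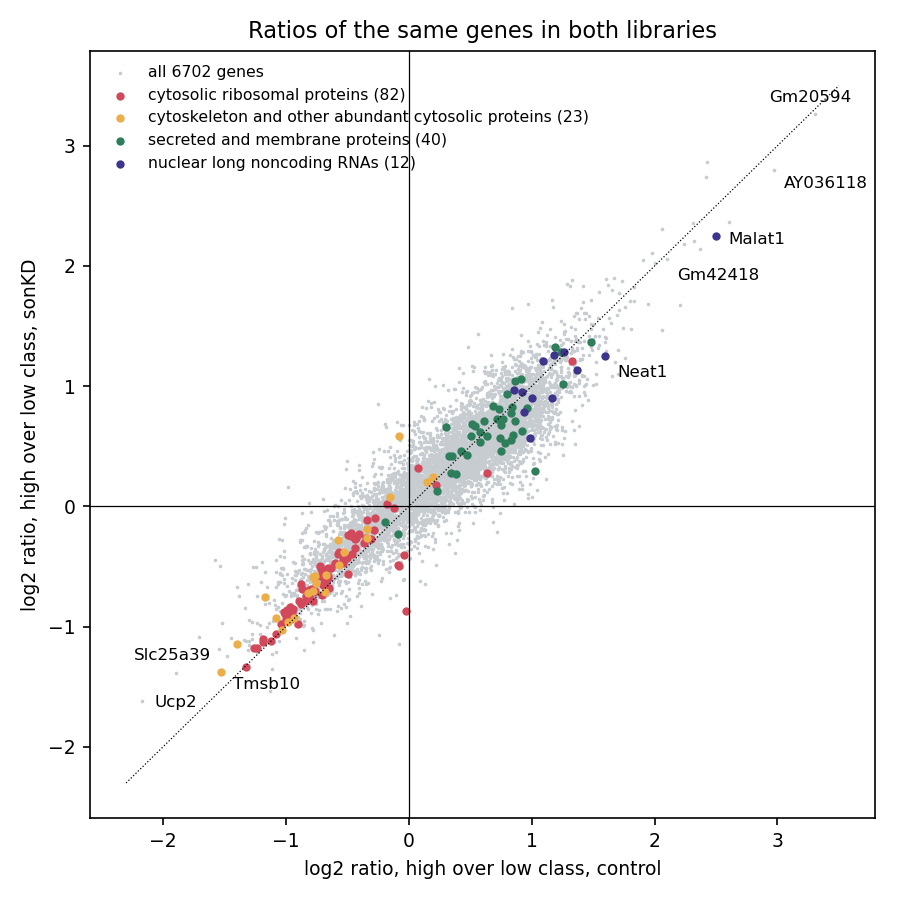
Log2 ratio of high over low class in control (x) and sonKD (y) for 6702 genes, with 4 gene lists in colour and the line of equal ratios dotted. Ribosomal protein and abundant cytosolic genes lie mostly below 0 in both libraries, and nuclear noncoding RNAs and secreted or membrane protein genes mostly above.

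Ribosomal protein mRNAs were the most abundant group that was lower. Of 82 measured cytosolic ribosomal protein genes 52 were past 1.5-fold lower in control and 43 in sonKD, 42 of them in both, with medians of -0.69 and -0.60. They summed to 13.0% of non-mt UMIs against 21.7% in control and 16.3% against 25.4% in sonKD. Per barcode, 92.3% and 87.6% of the high class lay below the 5th percentile of their low class. Both features, a Malat1 share above and a ribosomal share below those limits, were found together in 446 of 626 control and 590 of 1058 sonKD barcodes.

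Rps12 stood at 1385 against 3471 CPM in control and 1880 against 4736 in sonKD, a ratio of -1.33 in each. Rps20 was at 2788 against 6572 CPM in control (-1.24) and Rpl32 at 1886 against 4519 (-1.26). Both small- and large-subunit genes were thus among the 12 lowest genes over both libraries. Rpl10 went the other way, at 1.33 and 1.21. Rps12, Rpl32 and many other ribosomal protein genes have near-identical processed copies, and their counts are uncertain to that extent. Depth-restricted, 55 of 82 genes were lower in control (median -0.75) and 15 of 82 in sonKD (median -0.37), none was higher, and the Rps12 ratios were -1.36 and -0.83. The restricted low class held 22.5% ribosomal protein UMIs in control and 20.3% in sonKD.

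Free RNA, sampled from 59886 control and 62449 sonKD droplets with 100 to 500 UMIs, held more ribosomal protein RNA than either class, at 33.8% and 38.8%, and less Malat1, at 1273 and 1029 CPM. Its mt- share was 0.982% and 0.961%. Its part in the differences between the classes was not tested.

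Abundant cytosolic and cytoskeletal mRNAs were lower as well. Of 23 such genes 14 were past 1.5-fold lower in control and 12 in sonKD, with medians of -0.76 and -0.59. Tmsb10 and Tmsb4x, which encode actin-sequestering thymosins, had ratios of -1.53 and -1.38 and of -1.03 in each library. Pfn1, the gene for the actin-binding protein profilin, stood at 171 against 452 CPM in control (-1.40) and 258 against 570 in sonKD (-1.14). Actb was at -0.57 and -0.49 and Eef1a1, the translation elongation factor gene, at -0.68 and -0.71. The last 300 bases of Tmsb10 match another transcript fully, which makes its count uncertain. Depth-restricted, 11 of 23 were lower in control (median -0.56) and 2 of 23 in sonKD (median -0.27).

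Glycolytic genes had medians of -0.42 and -0.10, with 5 and 2 of 16 past 1.5-fold lower and 2 and 3 higher. Gapdh, whose processed copies make its count uncertain, was at -0.92 and -0.70. Gpx4, the lipid peroxide reductase gene, was at 417 against 983 CPM in control (-1.24) and 431 against 845 in sonKD (-0.97), also with a 3′ end shared by other transcripts. Genes of glutathione, thioredoxin and the NRF2 response had 8 of 24 lower in control and 4 in sonKD, with medians of -0.15 and 0.05. Depth-restricted, the glycolytic medians were -0.26 and 0.09 and the glutathione and NRF2 medians -0.29 and 0.04.

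Transcripts translated at the ER were on the higher side. Of 40 measured genes for secreted and membrane proteins 25 were past 1.5-fold higher in each library, 20 of them in both, and none lower, with medians of 0.74 and 0.64. Lamp2, a lysosomal membrane protein gene, stood at 188 against 67.3 CPM in control (1.48) and 189 against 73.3 in sonKD (1.37). Slc38a2, an amino acid transporter gene, had ratios of 1.24 and 1.29. Depth-restricted, 17 of 42 were higher in control (median 0.46) and 1 of 42 in sonKD (median 0.04), and Lamp2 stood at 0.41 and 0.03.

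ER chaperone and translocation genes had 13 of 32 past 1.5-fold higher in control and 15 in sonKD, with medians of 0.51 in both. Pdia3, a protein disulfide isomerase gene, was at 846 against 408 CPM in control (1.05) and 796 against 362 in sonKD (1.14). Pdia6 had ratios of 0.91 and 1.07. Sec62, a subunit of the translocation machinery, had 1.24 and 1.22. Depth-restricted, 8 of 33 were higher in control and none of 33 in sonKD, the Pdia3 ratios were 0.29 and -0.08, and those of Pdia6 were 0.69 and 0.56. As lists, the ER groups thus stood near the restricted sonKD median gene of 0.09.

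**Figure D3:**
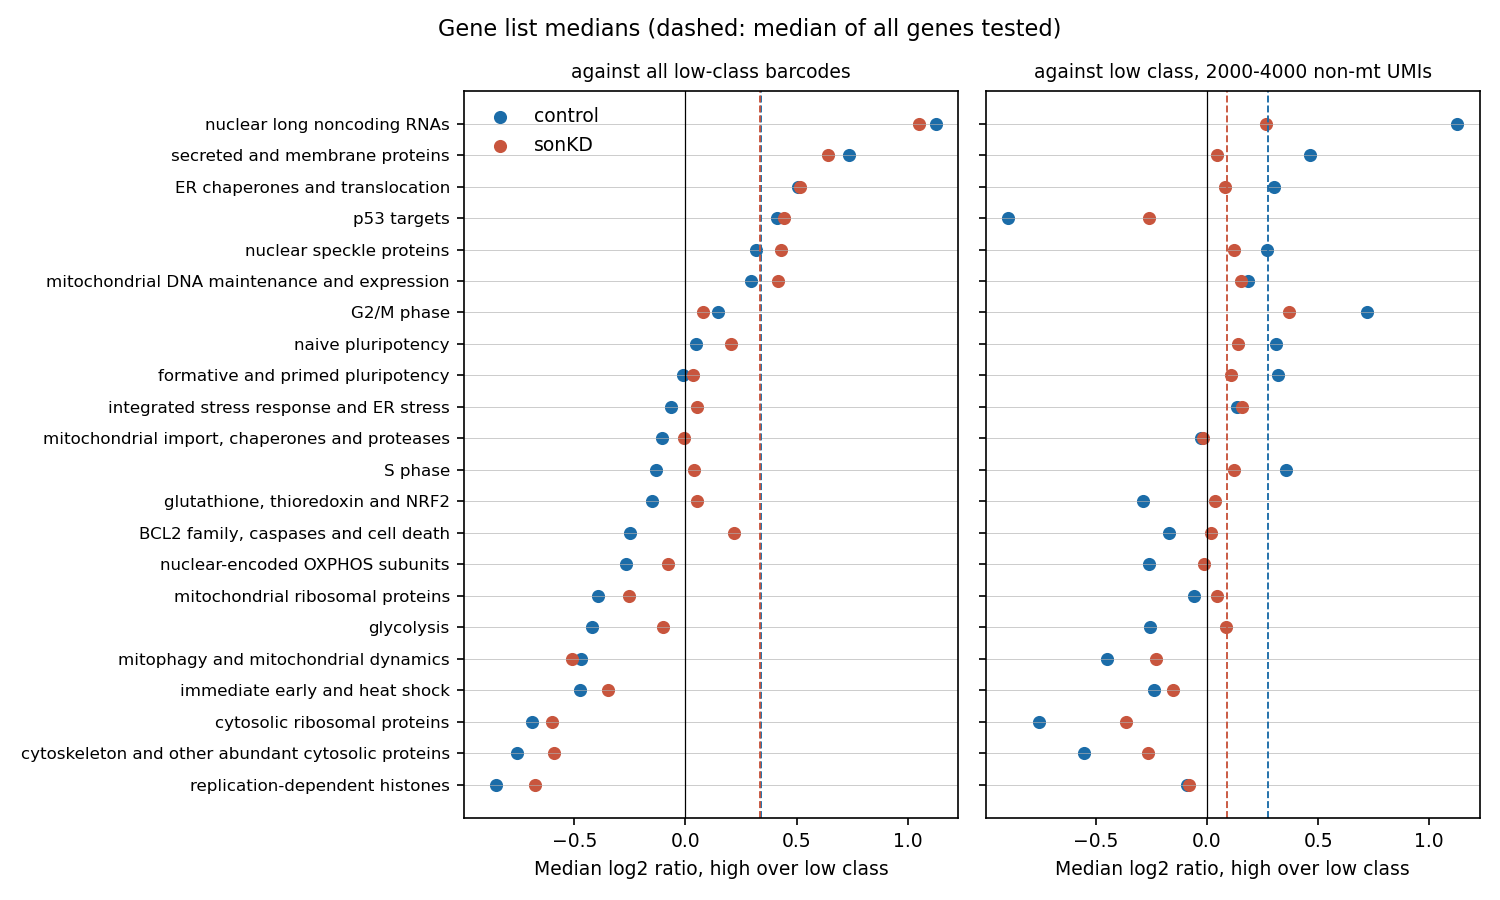
Median log2 ratio of high over low class for each gene list with at least 5 measured members, against all low-class barcodes (left) and with both classes restricted to 2000 to 4000 non-mt UMIs (right). Dashed lines mark the median of all genes tested. The p53 target list lies at 0.41 and 0.44 on the left and at -0.89 and -0.26 on the right, and the ribosomal protein list lies below 0 in both panels.

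Nuclear genes for mitochondrial proteins did not stand higher as a group, although the mt- genes had chosen the barcodes. Of 80 nuclear-encoded subunits of oxidative phosphorylation 17 were past 1.5-fold lower and 2 higher in control, and 9 lower and 3 higher in sonKD, with medians of -0.27 and -0.08. They summed to 2.61% of non-mt UMIs against 2.83% in control and 3.35% against 3.25% in sonKD. Atp5e, an ATP synthase subunit gene, stood at 124 against 316 CPM in control (-1.34), and Sdhc, of complex II, at 72.6 against 137 (-0.91). Cox6a1 and Cox4i1, subunits of cytochrome c oxidase, were higher, at 1.04 and 1.24 and at 0.64 and 0.85. Depth-restricted, the subunit list had medians of -0.26 and -0.01, with 12 of 80 lower in control and 1 of 80 in sonKD.

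Mitochondrial ribosomal protein genes, which make the organelle's own ribosome, had 16 of 74 lower in control and 9 in sonKD, with medians of -0.39 and -0.25. Mrpl30 was at -1.08 and -1.21 and Mrpl54 at -1.05 and -1.12. Genes that maintain and express mitochondrial DNA had 6 of 19 higher in each library and none lower, with medians of 0.30 and 0.42, near that of all genes. Twnk, the mitochondrial helicase gene, was at 1.15 and 1.22 and Mtif2, a translation initiation factor gene, at 0.80 and 0.88. Tfam, which packages mitochondrial DNA, stood at -0.35 and -0.51, and at 0.064 and 0.021 when depth-restricted. Depth-restricted, the ribosomal list was at -0.06 and 0.04 and the DNA list at 0.18 and 0.15.

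Import and protease genes had medians of -0.11 and -0.00. Mitophagy and dynamics genes had 4 and 5 of 12 lower and none higher, with medians of -0.47 and -0.51. Depth-restricted, 3 of 11 were lower and 1 higher in control and 1 of 11 lower in sonKD, with medians of -0.45 and -0.23, and the import list was at -0.03 and -0.02. A pair of mitochondrial carrier genes were the lowest of all in control. Ucp2 stood at 16.7 against 75.2 CPM in control (-2.17) and 19.0 against 58.4 in sonKD (-1.62), and Slc25a39, of the glutathione carrier, at 59.5 against 221 (-1.90) and 84.8 against 221 (-1.38). Depth-restricted, Slc25a39 was at -1.20 and -0.71, while Ucp2 was at -1.76 in control and 0.93 (-0.52 to 2.87) in sonKD, on 4 UMIs in that low class. The last 300 bases of Ucp2 match another transcript fully.

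The mt- genes kept similar proportions among themselves, with mt-Nd6 apart. mt-Co3 was the largest at 23.1% of mt- UMIs in the control high class and 22.3% in the low class. mt-Co1, a cytochrome c oxidase subunit gene, was 11.9% against 14.8% in control (log2 ratio -0.32) and 13.0% against 14.8% in sonKD (-0.19). mt-Nd6, the 1 protein gene transcribed from the other strand of the mitochondrial genome, was 0.147% against 0.0751% in control, a log2 ratio of 0.97 (0.81 to 1.13), and 0.102% against 0.0590% in sonKD, 0.78 (0.63 to 0.93). The other 12 mt- genes lay between -0.32 and 0.23 in both libraries. Reads of mt-Nd6 and of transcript from the opposite strand cannot be told apart if strand was not used.

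Genes of cell death and of the p53 response were mixed, and the direction of the p53 target list depended on the depth of the low class. Of 20 measured p53 targets 8 were past 1.5-fold higher and 3 lower in control, and 9 higher and 1 lower in sonKD, with medians of 0.41 and 0.44. Mdm2, the ubiquitin ligase gene that p53 induces, was at 283 against 146 CPM in control (0.95) and 266 against 133 in sonKD (1.00). Depth-restricted, Mdm2 was at 259 against 592 CPM in control (-1.19, -1.38 to -1.01) and 215 against 429 in sonKD (-0.999, -1.25 to -0.74). Its level in the high class thus went from 283 to 259 CPM in control and from 266 to 215 in sonKD. That of the low class was higher among shallow barcodes, going from 146 to 592 CPM in control and from 133 to 429 in sonKD.

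The same turn was seen in other p53 targets. Apaf1, of the apoptosome, went from 0.98 and 0.96 to -1.28 and -0.90, and Polk, a translesion polymerase gene, from 1.22 and 1.31 to -0.82 and -0.45. Trp53inp1 went from 1.44 and 0.93 to -0.80 and 0.05. Cdkn1a, the gene for the cell cycle inhibitor p21, was lower in both comparisons, at -0.32 and -0.46 and then at -1.24 and -0.80. Depth-restricted, 15 of 23 targets were lower and 1 higher in control (median -0.89), and 8 lower and none higher in sonKD (median -0.26).

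Among 13 genes of the BCL2 family, caspases and cell death 4 were higher and 5 lower in control, and 4 higher and 2 lower in sonKD. Bax, a pore-forming member, was at -0.66 and -0.51, and Xiap, a caspase inhibitor gene, at 1.02 and 0.97. The medians of this list were -0.25 and 0.22, and -0.17 and 0.02 when depth-restricted. Bax was then at -0.43 and -0.23 and Xiap at 0.80 and 0.70. Integrated stress response and ER stress genes had medians of -0.07 and 0.05. Immediate early and heat shock genes had 3 of 9 lower in control and 0 of 9 past 1.5-fold in sonKD, with medians of -0.47 and -0.35. Hsp90aa1, at 0.39 and 0.40, and Hsp90ab1, at 0.20 and 0.24, lay above these medians. Depth-restricted, the stress list had medians of 0.14 and 0.16, and 4 of 11 immediate early and heat shock genes were lower in control and 2 of 11 in sonKD, with medians of -0.24 and -0.15. With TMM factors Hsp90ab1 and Sox2 lay below 0 in both libraries.

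Cell cycle lists lay below the median gene against all low-class barcodes and above it when depth-restricted. The S phase list had medians of -0.13 and 0.04 with 1 of 40 genes past 1.5-fold in each direction, and the G2/M list medians of 0.15 and 0.08 with 5 of 51 higher and 1 lower in each library. Hjurp, a centromere chaperone gene, was at 1.19 and 1.03 and Ect2, a cytokinesis gene, at 0.84 and 0.84, while Ube2c, a mitotic ubiquitin enzyme gene, was at -0.81 and -0.80. Depth-restricted, 28 of 52 G2/M genes were higher in control and 9 of 52 in sonKD, with medians of 0.72 and 0.37, and Ube2c stood at 0.18 and 0.41. Of 40 S phase genes 9 were then higher in control and 1 in sonKD, with medians of 0.36 and 0.12 against 0.27 and 0.09 for all genes. Of 9 measured replication-dependent histone genes 7 were lower in control and 6 in sonKD, among them Hist1h1b at 312 against 871 CPM (-1.48) and 472 against 1118 (-1.24). Hist1h3d was higher, at 1.36 and 1.14. Depth-restricted, the histone medians were -0.09 and -0.08 and Hist1h1b stood at -0.12 and -0.08. Histone mRNAs of this class mostly lack poly(A) tails, so a poly(A) library captures a small part of them.

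Son was higher in the high class of both libraries, at 355 (327 to 385) against 175 CPM in control and 228 against 110 in sonKD, ratios of 1.02 and 1.05. Between the libraries it was 0.64 lower on the log2 scale in the sonKD high class (-0.64, -0.80 to -0.48) and -0.67 in the low class. The targeted RNA was thus lower in the sonKD library in both classes. Depth-restricted, the class ratios of Son were 0.68 and 0.53. Of 32 nuclear speckle protein genes 9 were higher in control and 10 in sonKD, with medians of 0.32 and 0.43, and of -0.02 and 0.09 with TMM factors. Tra2a, a splicing regulator gene, was at 0.97 and 1.02, Clk4, a kinase of splicing factors, at 1.08 and 0.95, and Srrm2, a speckle scaffold gene, at 0.48 and 0.65. Depth-restricted, 6 of 32 speckle genes were higher in control and 0 of 32 in sonKD, with medians of 0.27 and 0.12, and the sonKD ratios of Tra2a and Clk4 were -0.04 and 0.12.

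Longer genes had higher ratios. Across the 6702 genes the Spearman correlation of the ratio with the genomic span was 0.57 in control and 0.46 in sonKD, with the longest transcript 0.50 and 0.43, with the exon number 0.32 and 0.27, and with GC content -0.27 and -0.23. These describe genes that share libraries and are not independent. Of 10 bins of equal gene number, the bin with the shortest span had a median of 3170 bases and median ratios of -0.34 and -0.18. The bin with the longest had a median of 205848 bases and ratios of 0.80 and 0.59. There 76.3% of genes in control and 51.5% in sonKD were past 1.5-fold higher, against 6.71% and 9.24% in the shortest bin. Depth-restricted, the correlation with span was 0.40 in control and 0.11 in sonKD. Whether intronic reads were counted is not given in the sources used here.

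**Figure D4:**
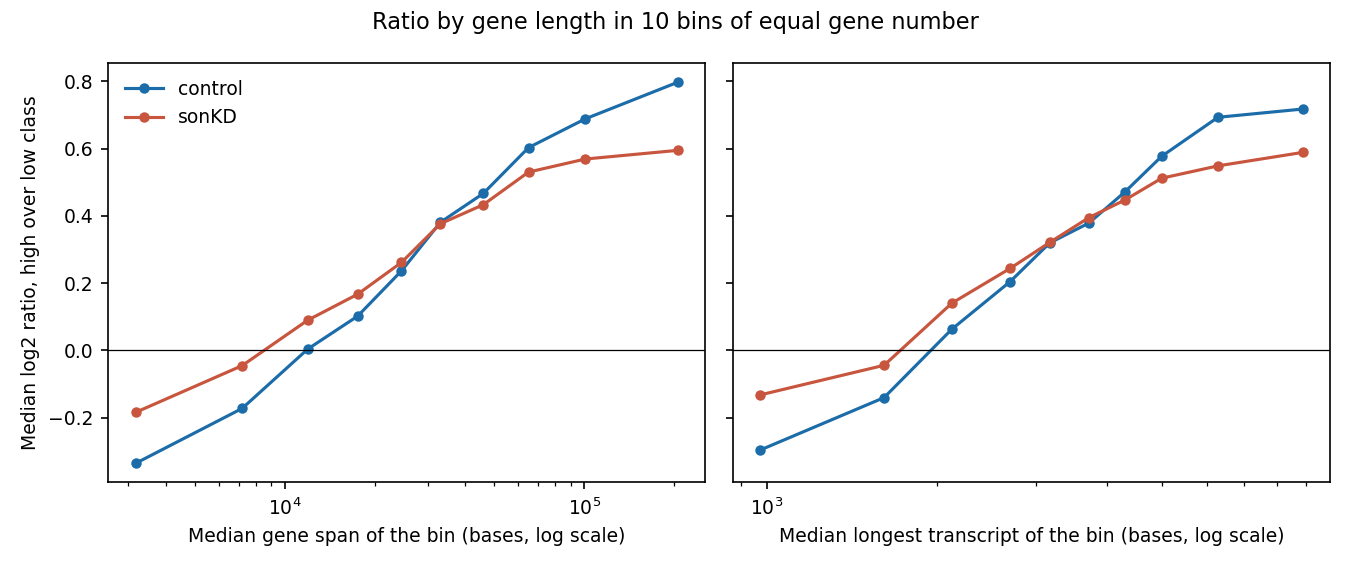
Median log2 ratio of high over low class in 10 bins of genes by genomic span (left) and longest transcript (right), both on log axes, for control and sonKD. The median runs from -0.34 to 0.80 in control and from -0.18 to 0.59 in sonKD over the span bins.

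Over bins of mt- share, Malat1 and ribosomal protein levels differed most between the bins on either side of the 10% limit. In control Malat1 stood at 2560 CPM in barcodes with up to 5% mt- UMIs, 3779 at 5 to 10%, 14474 at 10 to 15%, 16899 at 15 to 20% and 16835 at 20 to 30%. In sonKD it stood at 2125, 2918, 8968, 11635 and 12201 CPM over the same bins and at 9203 above 30%. Ribosomal protein genes ran from 21.9% to 20.9%, 13.7%, 12.1% and 11.7% of non-mt UMIs in control. Secreted and membrane genes stood at 0.452%, 0.560%, 0.677%, 0.756% and 0.766% in control, and Neat1 at 78.9, 159, 240, 302 and 392 CPM. The median depth moved with these bins, from 7721 and 5565 to 2651, 2431 and 2220 non-mt UMIs in control, and its part in the steps was not tested.

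Inside the high class the mt- share was only weakly related to the Malat1 and ribosomal shares. The Spearman correlation over barcodes of the mt- share with the Malat1 share was 0.11 in control and 0.09 in sonKD, and with the ribosomal share -0.24 and -0.02. From the 10 to 15% bin to the 20 to 30% bin, Neat1 went from 240 to 392 CPM in control and from 521 to 632 in sonKD. Gm20594 went from 26.4 to 86.5 and from 23.5 to 45.7 CPM. Just inside the limit, 128 control barcodes with 10 to 12% mt- UMIs held 1.25% Malat1 and 15.1% ribosomal protein UMIs, and 142 just outside, with 8 to 10%, held 0.694% and 18.7%. In sonKD 87 barcodes inside held 0.730% and 20.8%, and 114 outside 0.529% and 24.2%. Across the UMI minimum, barcodes within 250 UMIs below and above it held 1.52% and 1.62% Malat1 in control and 1.02% and 1.15% in sonKD.

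**Figure D5:**
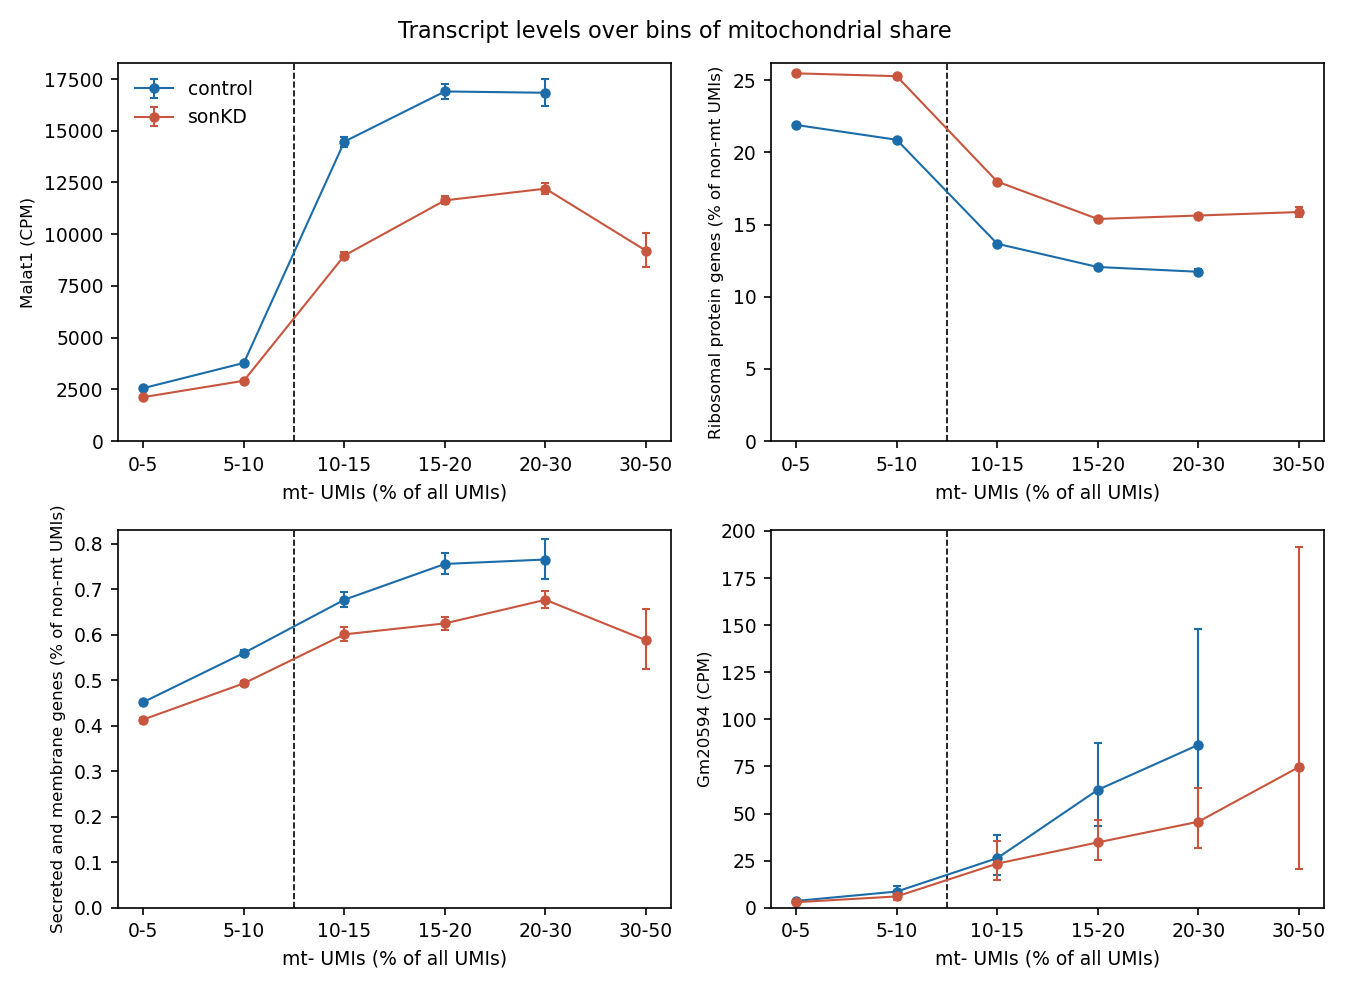
Levels of Malat1 and Gm20594 (CPM) and of ribosomal protein and secreted or membrane protein genes (% of non-mt UMIs) over bins of mt- share, with 95% counting intervals and the 10% limit dashed. Malat1 in control stands at 3779 CPM in the whole 5 to 10% bin and 14474 in the whole 10 to 15% bin. Gm20594 keeps climbing with the mt- share.

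More genes were past 1.5-fold between the libraries within the high class than within the low class. In the high class 216 genes (3.22%) were at least 1.5-fold higher in sonKD and 287 (4.28%) lower, against 67 (1.00%) and 64 (0.955%) in the low class, whose sums are much deeper and less affected by counting error. Neat1 was higher in sonKD in both classes, with log2 ratios of 1.02 (0.87 to 1.17) and 1.36. Ribosomal protein genes had medians of 0.42 in the high and 0.36 in the low class. Malat1 was at -0.50 in the high class and -0.26 in the low class. Depth-restricted, the ribosomal protein medians were 0.36 in the high and -0.05 in the low class. Malat1 was then at 15764 CPM in control and 11553 in sonKD in the high class. In the low class it was at 4934 and 8127 CPM, the opposite direction. Neat1 stayed higher in sonKD in both classes, at 570 against 267 CPM in the high and 475 against 170 in the low class.

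With all barcodes of both classes, a few genes differed between libraries mainly in the high class. Atp6v0b, a proton pump subunit gene, was at 240 CPM in control and 376 in sonKD in the high class (0.64, 0.48 to 0.81) and had a log2 ratio of 0.01 in the low class, a difference of 0.63 (0.46 to 0.81). Taok1, a kinase gene, was at 126 and 64.8 CPM (-0.96, -1.24 to -0.67) against -0.31 in the low class. Thada was at 146 and 86.1 CPM (-0.77) against -0.11. These were among the 5 highest and 5 lowest differences by rule, and no test of them was possible with 1 library per group. Depth-restricted, Atp6v0b stood at 238 CPM in control and 380 in sonKD in the high class, and at 195 and 322 in the low class. Its ratios of high over low class were then 0.29 and 0.24, so it differed between libraries in both classes. Depth-restricted, the sonKD ratios of high over low class were -0.34 for Taok1 and -0.11 for Thada, against 0.30 and 0.35 without the restriction.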

How the data were processed

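Unnormalized UMI counts for each gene in every listed barcode were deposited, and the authors made them with Cell Ranger 7.1.0, per the file headers. The submitters' processing notes name mm10. The annotation release, the treatment of intronic reads and strand are not given in the sources used here, and the labels name different sequencers in different fields. Positions and gene structures come from GENCODE M21, which holds 32235 of the 32285 gene identifiers and all 6702 genes tested. The libraries held 71046373 (control) and 60352438 (sonKD) UMIs.

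Groups came from the sample titles. Counts were summed per class and library over barcodes with at least 2500 UMIs, split at 10% mt- UMIs, and scaled to CPM with mt- genes left out. Genes averaging 20 CPM or more across the 4 sums entered, and called means past 1.5-fold. Intervals (95%) were exact Poisson for CPM, Clopper-Pearson for shares and conditional binomial for ratios. No test was made with 1 library per group. No doublet caller was run, and an alternative left out barcodes over 2 times the low-class median. Sums of high classes held 1680031 (control) and 2995632 (sonKD) non-mt UMIs. The ratio step was tested on simulated data. TMM factors came from edgeR 4.0.16 and sequence matches from BLAST+ 2.17.0, where a 3′ end of 300 bases counted as shared at 95% identity.

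The members and lists were chosen with earlier results of these data known. Named were the mt- genes, the 12 highest and 12 lowest ratios, the 3 highest and 3 lowest members of each list, the 5 highest and 5 lowest differences between libraries, and Son, Malat1, Neat1, Pou5f1, Sox2, Nanog, Gapdh, Actb, Eef1a1, Srrm2, Cdkn1a and Mdm2. Markers at 0 and other genes outside this rule were chosen after their values were seen.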

Additional observations from a re-analysis of the deposited data

Results flagged for a closer look

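Rnh1, which encodes a ribonuclease inhibitor of the cytosol, was on opposite sides of 0 in the libraries. Its log2 ratio of high over low class was -0.38 (-0.67 to -0.10) in control, at 62.5 against 81.2 CPM, and 0.25 (0.07 to 0.42) in sonKD, at 98.1 against 82.7 CPM. The difference between the libraries was not tested, and with 1 library per group neither value has a replicate check. Neither ratio was past 1.5-fold. With TMM factors both ratios were below 0 (-0.71 and -0.096), and among barcodes with 2000 to 4000 non-mt UMIs both were above 0 (0.17 and 0.45), so the opposite signs depended on the setting.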

How the results depend on the processing

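No paired analysis was possible because each group held 1 library, and for the same reason no library could be left out. Counts follow as higher and lower genes in control, in sonKD and in both libraries, and then for sonKD over control in the high class. With TMM factors they were 880 and 1316, 658 and 1042, 458 and 913, and 330 and 146. Without ribosomal protein genes in the totals, the lower genes in control were 870, sonKD had 1204 and 599, and both libraries 982 and 517. At a mean of 50 CPM the higher genes were 1103, 934 and 821, the library comparison gave 119 and 84, and the correlation with exon number in control was 0.42. With no filter the counts were 14432 and 866, 13504 and 653, 10860 higher in both, and 1156 and 8048, where most genes rest on few UMIs, and the histone list medians turned to 0.48 and 0.32. At 2-fold the counts were 601 and 94, 479 and 41, 313 and 33, and 22 and 20. With the high class above 15% mt- UMIs the library comparison gave 333 and 630. From 4000 UMIs it gave 609 and 1201 on 63 control barcodes, with 810 genes lower in control, and the shares of high-class barcodes were 1.32% and 7.61%. The shares were 34.5% and 45.2% from 1500 UMIs, 0.335% and 3.07% from 5000, 6.11% and 17.7% from 2500 non-mt UMIs, and 10.1% and 8.54% at the low-class median divided by 3. Thinned to 1000 UMIs, barcodes held 764 (high) and 680 (low) genes in control and 744.5 and 657 in sonKD.

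Depth mattered most for direction. At 2500 to 5000 UMIs sonKD had 952 genes higher, and both libraries 530 higher and 151 lower. Of the genes named that had been past 1.5-fold, Trp53inp1 was there at -0.32 and -0.80, Apaf1 at -0.79 and -0.94, Mdm2 at -0.92 and -1.10, and Polk at -0.45 and -0.33. In sonKD alone Ube2c (0.42), Ucp2 (0.37), Hist1h1b (0.11), Psat1 (0.062), Eda2r (-0.017) and the histone list (0.11) also turned. Of the smaller ratios, Tfam (0.31), Taok1 (-0.31) and Thada (-0.15) turned in sonKD and Sox2 (-0.019) and Nanog (0.19) in control. At 2000 to 4000 non-mt UMIs sonKD had 809 higher, and both had 351 higher and 109 lower. Of genes past 1.5-fold before, those turned in both libraries were Ube2c (0.18 and 0.41), Apaf1 (-1.28 and -0.90), Mdm2 (-1.19 and -0.999) and Polk (-0.82 and -0.45). Trp53inp1 (-0.80) and Psat1 (0.22) turned in control, and Pdia3 (-0.076), Tra2a (-0.043), Ucp2 (0.93), Bnip3 (0.052) and Gm35188 (-0.079) in sonKD. Of the smaller ratios, Tfam turned in both (0.064 and 0.021), Nanog (0.31) and Rnh1 (0.17) in control, and Taok1 (-0.34) and Thada (-0.11) in sonKD. With TMM factors Taok1 in sonKD was at -0.045. Correlations with transcript length and span were 0.35 and 0.40 in control and 0.063 and 0.11 in sonKD, where those with exons and GC were 0.073 and -0.070. The cause was not tested. Of the other values for the main comparisons, 79 stayed within the limits set.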
